A study of Mus musculus with 6 samples.

Results

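The genes described here are Nmrk2 and 8 other genes of NAD synthesis in the gastrocnemius of C26-xenografted mice. They were chosen by their place in NAD synthesis, around Nmrk2, which was itself selected on its fall in the comparison of C26 with control muscle. All 9 genes (Nmrk1, Nmrk2, Nampt, Naprt, Nadsyn1, Nmnat1, Nmnat3, Nadk and Nadk2) were found among the 13363 genes with deposited values, and every one was above 0 in all 6 muscles. As that same comparison chose them, their levels and differences are given as a description and without p-values.

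RNA was sequenced from 3 gastrocnemius samples of C26 mice and 3 of control mice. All were male Balb/c mice bought at 6 weeks of age and kept for 1 week before use, and no genetic change or drug was named for either group. The C26 mice carried subcutaneous tumors of C26, a mouse colon adenocarcinoma line used as a model of cancer cachexia, so the group stands for 1 transplanted line. Control mice were not inoculated. The study weighed the mice daily and collected tissue after the C26 mice had lost weight, and the day is not in the labels. The labels number the samples of a group as replicates without saying that each came from a separate mouse, so p-values measure only the spread between these samples, which may be technical. The extraction text in the labels also names infected THP-1 cells, a human monocyte line. Mouse muscle fibre genes were nevertheless abundant in every library, with Acta1, skeletal actin, at 10781 to 27269 FPKM (fragments per kilobase of transcript, scaled to the library).

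NAD carries electrons in energy metabolism and is consumed by sirtuins, PARPs and NAD glycohydrolases, so cells rebuild it continuously. Nicotinamide is returned to nicotinamide mononucleotide (NMN) by Nampt, while nicotinamide riboside (NR) is phosphorylated to NMN by the NR kinases Nmrk1 and Nmrk2. Nicotinic acid enters through Naprt, Nmnat1 and Nmnat3 join NMN to an adenylyl group, Nadsyn1 amidates the nicotinic acid form to NAD, and Nadk and Nadk2 phosphorylate NAD to NADP. Nmrk2 is known as the NR kinase of skeletal muscle and also as a muscle integrin binding protein.

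In GRCm38 the Nmrk2 gene occupies chr10:81198170-81202051 (minus strand), with 1 annotated transcript of 7 exons. Nampt occupies chr12:32819545-32853349 (plus strand). RefSeq (GRCm38.p6) gives the 250 bases before the start of Nmrk2 as chr10:81202038-81202287 (minus strand) and those before the RefSeq start of Nampt as chr12:32820085-32820334 (plus strand), which lies inside the GENCODE span above because an annotated transcript begins further upstream. The GENCODE start of Nmrk2 is likewise a few bases upstream of the RefSeq start, so the end of its window lies inside the gene span, and distances are counted from the RefSeq starts. Both are shown 5′ to 3′ because these are the members with the largest fall and the largest rise. Capitals mark a TATAAA motif, 46 bases before the start of Nmrk2, and a CAGCTG motif (an E-box), 105 bases before that start of Nampt.
Nmrk2: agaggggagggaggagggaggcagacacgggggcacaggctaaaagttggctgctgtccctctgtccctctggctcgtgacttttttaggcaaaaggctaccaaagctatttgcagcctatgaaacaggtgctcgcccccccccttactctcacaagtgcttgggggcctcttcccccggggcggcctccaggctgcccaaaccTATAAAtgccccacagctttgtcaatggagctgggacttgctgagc
Nampt: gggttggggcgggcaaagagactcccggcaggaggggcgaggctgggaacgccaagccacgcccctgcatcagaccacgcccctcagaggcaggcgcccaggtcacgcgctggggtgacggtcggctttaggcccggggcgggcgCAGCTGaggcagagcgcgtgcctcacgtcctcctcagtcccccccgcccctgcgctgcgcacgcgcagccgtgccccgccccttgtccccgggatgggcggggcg
The Nmrk2 window held 58.8% G and C with 5 CpG dinucleotides, and the Nampt window held 75.6% with 27 CpG. Of 32851 promoter windows of this length, 12.4% held TATAAA on either strand and 13.0% held CAGCTG. Another E-box, CACGTG, and a forkhead motif, GTAAACA, were searched too on both strands. CACGTG occurred 40 bases before 1 of the annotated starts of Nadk and in 6.02% of all windows, and GTAAACA occurred in 3.17% of all windows. Naprt and Nadk2 had no window to search. No window of the other members held more than 1 match, and a match is not evidence of binding.

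Nmrk2 was among the more abundant transcripts of control muscle and was low in C26 muscle. Control muscles held 109, 71.4 and 160.3 FPKM of Nmrk2, compared with 4.86, 1.33 and 4.84 FPKM for C26. The highest C26 muscle was far under the lowest control muscle, and C26 replicate 2 was the lowest of the 6. The group means were 3.68 ± 2.03 and 113 ± 44.6 FPKM (SD, n = 3 each), a 30.8-fold difference in FPKM. On the log2 scale of TMM-scaled TPM plus 1, on which all differences below are given, Nmrk2 was lower by a log2 fold change of -4.61 (SE 0.48). It passed both an adjusted p under 0.05 and a fold above 4, as did 1.73% of all genes in this direction. The change stood in place 4 from the lowest of all 13363 genes. Within each library, 93.8% to 97.0% of genes had a lower FPKM than Nmrk2 in the control muscles, against 32.3% to 54.3% in the C26 muscles. In bulk tissue, fewer cells of a type and less RNA per cell cannot be told apart.

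**Figure D1:**
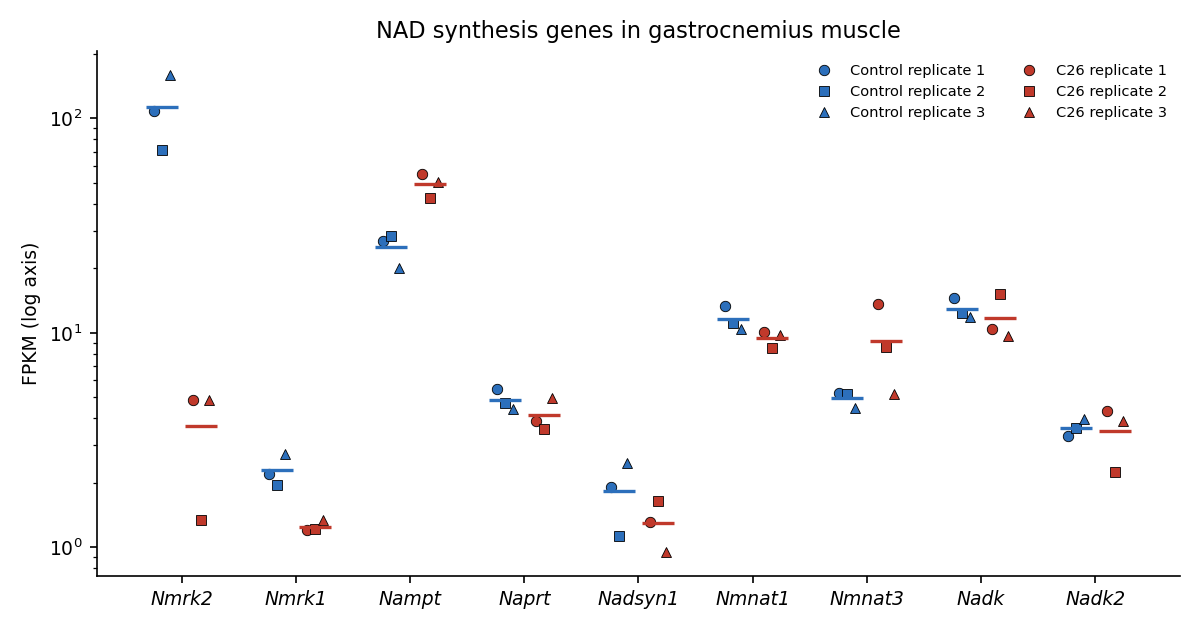
FPKM of the 9 NAD synthesis genes on a log axis in each of the 3 control (blue) and 3 C26 (red) muscles, with horizontal lines at the group means. Nmrk2 lies at 71.4 to 160.3 FPKM in control and 1.33 to 4.86 FPKM in C26 muscles, while Nampt lies higher in C26 and most other genes overlap between groups.

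The summed FPKM of 12 muscle fibre markers was also lower in C26 muscle, at 54470 to 81767 against 106503 to 109308 in control muscle. Most of that sum came from Acta1, Ckm, Tnnt3, Pvalb and Myh4, and 5 of the 12 markers (Des, Myh1, Myh2, Myh4 and Ttn) had a positive log2 fold change, 0.21 to 2.13. C26 replicate 3 stood apart from the other C26 muscles in Mb (4906 against 74.0 and 275 FPKM) and Myh1 (2555 against 254 and 299 FPKM). Of the 12 markers, Pvalb, a calcium buffer of fast fibres, passed the threshold as lower (log2 fold change -2.59, SE 0.63) and Des, the filament protein desmin, as higher (0.72, SE 0.16). Pvalb lost its call in 4 and Des in 3 of the 6 fits with a muscle left out, both of them without C26 replicate 1 or control replicate 1, and Des also under quantile normalization, an intensity trend and scaling without the most abundant genes. Per 1000 FPKM of these markers, Nmrk2 was at 0.0752, 0.0244 and 0.0592 FPKM in C26 muscles and at 0.999, 0.670 and 1.47 FPKM in control muscles. The groups stayed apart on that scale. Fat cell markers (groups apart in 7 of 7, beside 53.5% of all genes in either direction, and 6 of 7 called lower, beside 14.5%) reached a summed 251 to 386 FPKM under C26 against 538 to 4130 FPKM without a tumor, and each of the 6 lost its call in 4 or 5 of the 6 fits with a muscle left out, C26 replicates 1 and 2 and control replicate 2 in every case. Cidec also lost its call in TPM without TMM and under quantile normalization. Fibroblast markers summed to 162 to 211 FPKM in C26 and 353 to 471 FPKM in control muscle, with 4 of 6 called lower beside the same 14.5%. Of these 4, Col1a1 and Col3a1 were called in every fit, while Dpt and Lum lost their calls without C26 replicate 1, C26 replicate 2, control replicate 1 or control replicate 2. The part of these other cell types in the Nmrk2 difference was not tested. An antisense transcript, Atcayos, shares 270 exonic bases with Nmrk2 on the opposite strand, and whether reads were counted by strand is not given in the sources used here.

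Nmrk1, the more widely expressed NR kinase, was low in every muscle. Control muscles measured 2.2, 1.95 and 2.71 FPKM and C26 muscles 1.2, 1.21 and 1.33 FPKM, so the groups did not overlap. The log2 fold change was -0.48 (SE 0.14), and Nmrk1 passed the threshold as lower in C26, as did 14.5% of all genes. That call was lost under quantile normalization, an intensity trend and the replicate number as a block. It was also lost when any muscle other than C26 replicate 3 was left out. Nmrk2 made up 97.3% to 98.3% of the summed FPKM of both kinases in control muscles. In C26 muscles it made up 80.2%, 52.4% and 78.4%, so in C26 replicate 2 the kinases were at nearly equal levels.

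Nampt, the rate-limiting enzyme of nicotinamide salvage, was higher in C26 muscle. It measured 26.8, 28.4 and 20 FPKM without a tumor and 55.1, 42.4 and 50.5 FPKM with one, and no values overlapped. The means were 49.3 ± 6.46 and 25.1 ± 4.45 FPKM (SD, n = 3 each). The log2 fold change was 1.18 (SE 0.23), or 2.27-fold in TMM-scaled TPM, and Nampt passed the threshold as higher, as did 19.4% of all genes. Without C26 replicate 1 it no longer passed. Nampt is also made by neutrophils, and the 3 neutrophil markers measured (Lcn2, S100a8 and S100a9) were all called higher in C26 muscle, beside 19.4% of all genes. Their summed level was 12.03 to 31.8 FPKM against 0.83 to 2.57 FPKM. Lcn2 gave most of that sum in C26 replicates 2 and 3 (25.7 and 13.4 FPKM), and S100a8 and S100a9 were at 2.85 to 3.96 FPKM in C26 muscles. Of the 5 macrophage and leukocyte markers measured, Ptprc among them, 0 were called in either direction. The part of neutrophils in the Nampt difference was not tested.

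Of the 3 genes whose products make NMN, Nmrk2 and Nampt exchanged first place, and Nmrk1 was the lowest in every muscle. Nampt held 19.5%, 27.9% and 10.9% of the summed FPKM of Nmrk1, Nmrk2 and Nampt in control muscles and 90.1%, 94.3% and 89.1% in C26 muscles. Nmrk2 was 4.05, 2.52 and 8.01 times Nampt in the control muscles. In the C26 muscles Nampt was 11.3, 31.9 and 10.4 times Nmrk2. The summed level of the 3 genes was 61.2, 44.9 and 56.7 FPKM in C26 and 138, 102 and 183 FPKM in control muscles, again with no overlap.

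**Figure D2:**
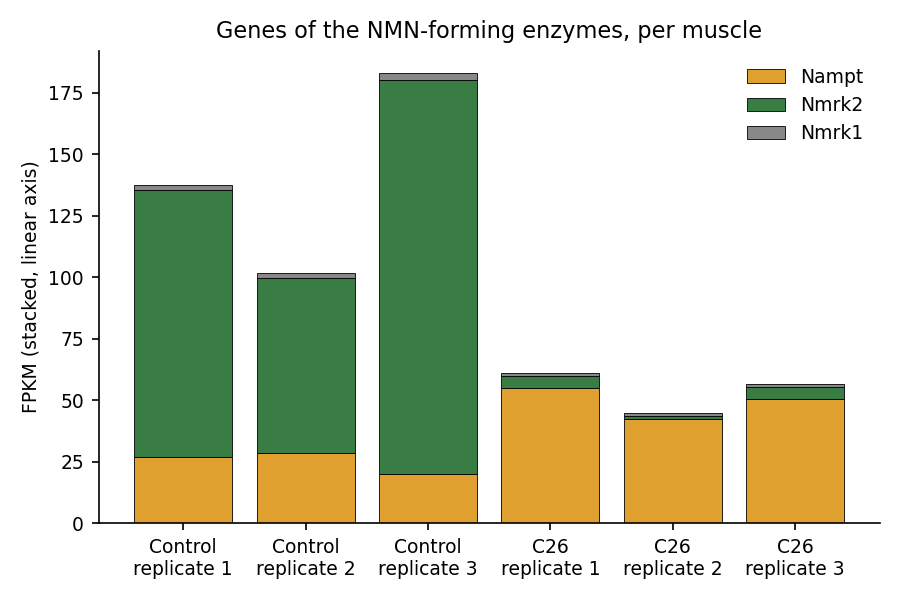
Summed FPKM of Nmrk1, Nmrk2 and Nampt in each of the 6 muscles as stacked bars on a linear axis from 0. Nmrk2 fills most of each control bar, whereas Nampt makes up 89.1% to 94.3% of each C26 bar, and the C26 bars are shorter (44.9 to 61.2 against 102 to 183 FPKM).

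The enzymes Nmnat1 and Nmnat3, which finish NAD in the nucleus and in mitochondria, did not pass the threshold. Nmnat1 measured 10.1, 8.53 and 9.74 FPKM in C26 and 13.4, 11.1 and 10.5 FPKM in control muscles, and its log2 fold change was -0.08 (SE 0.17). Its groups were apart in FPKM but overlapped in TMM-scaled TPM. Nmnat3 measured 13.6, 8.57 and 5.19 FPKM in C26 and 5.22, 5.18 and 4.47 FPKM in control muscles, with a log2 fold change of 0.91 (SE 0.31). C26 replicates 1 and 2 were above every control muscle, while C26 replicate 3 lay within the control range in FPKM. In TMM-scaled TPM, C26 replicate 3 was at 9.83 and the control muscles were at 6.46 to 8.77, so the groups were apart on that scale. Only without that muscle, of the 14 alternative fits, did Nmnat3 pass the threshold (log2 fold change 1.28). Nmnat3 accounted for 57.3%, 50.1% and 34.8% of the FPKM of both genes in C26 muscles and for 28.1% to 31.8% in control muscles.

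Naprt and Nadsyn1, the enzymes of the nicotinic acid route, overlapped between the groups. Naprt was at 3.88, 3.56 and 4.95 FPKM in C26 and 5.49, 4.68 and 4.40 FPKM in control muscles (log2 fold change -0.02, SE 0.19). Naprt shares 277 exonic bases with Eef1d, a translation elongation factor gene on the same strand that was listed at 142 to 234 FPKM in C26 and 128 to 163 FPKM in control muscles, so its value is uncertain where reads were split between the genes. Nadsyn1 was at 1.31, 1.64 and 0.95 FPKM in C26 and 1.91, 1.12 and 2.47 FPKM in control muscles (log2 fold change -0.18, SE 0.22). Control replicates 2 and 3 were farther apart than any of the C26 muscles.

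The NAD kinases overlapped as well. Nadk, the cytosolic enzyme, was at 10.5, 15.2 and 9.70 FPKM in C26 and 14.6, 12.4 and 11.8 FPKM in control muscles (log2 fold change 0.06, SE 0.19). Nadk2, the mitochondrial enzyme, was at 4.30, 2.23 and 3.87 FPKM in C26 and 3.28, 3.60 and 3.95 FPKM in control muscles (log2 fold change 0.10, SE 0.25). C26 replicate 2 was the highest muscle for Nadk and the lowest for Nadk2. The sign of the fold change of Naprt, Nadsyn1, Nadk and Nadk2 depended on the scaling (for Nadk also on the filter on low values), and over the fits with all muscles the lowest was -0.39 (Nadsyn1) and the highest 0.25 (Nadk2).

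Counted over the set, 1 of 9 genes was called higher (19.4% of all genes were), 2 were called lower (14.5% of all genes were) and 6 were not called. In TMM-scaled TPM, 4 of the 9 (44.4%) had groups apart, against 53.5% of all genes. The median log2 fold change of the 9 was -0.02 beside -0.05 for all genes. These figures describe a chosen set. Nmrk2 formed 51.1% to 72.7% of the summed FPKM of the 9 genes in control muscles and 1.57% to 5.31% in C26 muscles. Without Nmrk2, the other 8 summed to 83.3 to 99.96 FPKM in C26 and to 60.3 to 72.9 FPKM in control muscles. In control muscle Nmrk2 stood first in mean level, followed by Nampt, then Nadk and Nmnat1, whose ranges overlapped. In C26 muscle Nampt stood first, above Nadk, Nmnat1 and Nmnat3, which overlapped with each other. Nmrk2 there overlapped Naprt and Nadk2, its neighbours in the order.

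**Figure D3:**
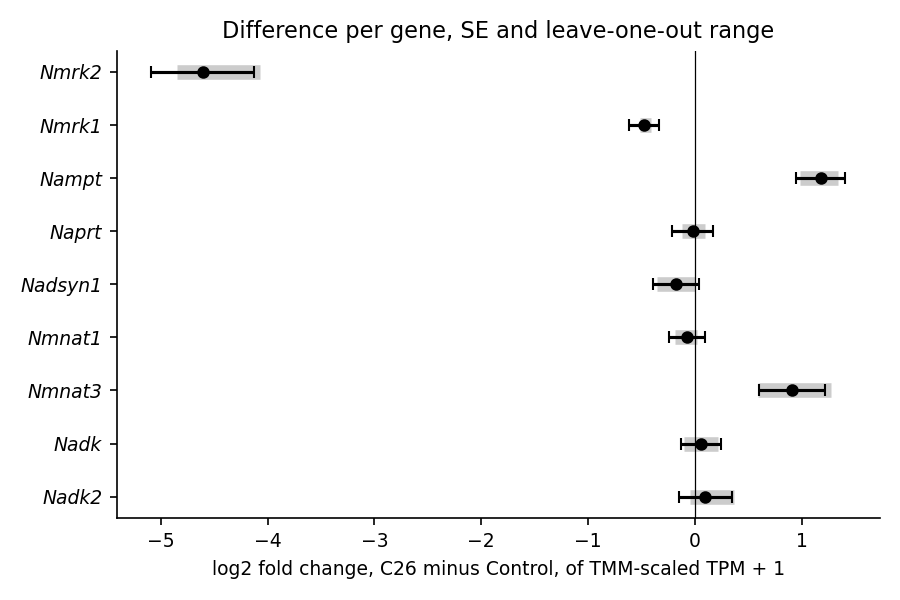
Log2 fold change (C26 minus control, TMM-scaled TPM plus 1) of the 9 genes with bars of 1 SE. Nmrk2 stands apart at -4.61, Nampt is at 1.18, and Naprt, Nadsyn1, Nmnat1, Nadk and Nadk2 lie within about 1 SE of 0.

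The genes whose levels followed Nmrk2 most closely over the 6 muscles were sought by Pearson correlation of log2 values among the 10449 genes with a mean of at least 1 FPKM. All 6 muscles of both groups enter it, so it favours genes lower in C26 whose muscles also follow the order of Nmrk2 within groups. Of the 10449 genes, 342 (3.27%) had r above 0.95. The 5 highest were Dupd1 (r = 0.9997), a muscle dual specificity phosphatase, Deaf1 (0.998), a transcription factor, Mettl21c (0.996), a muscle protein lysine methyltransferase, Gamt (0.996), the last enzyme of creatine synthesis, and Tmem50b (0.995). Dupd1 was at 4.22, 1.92 and 4.05 FPKM in C26 and 37.4, 28.9 and 49.1 FPKM in control muscles. Mettl21c was at 6.39, 3.39 and 6.57 FPKM in C26 and 90.3, 64.1 and 98.0 FPKM in control muscles. In both genes, as in Nmrk2, replicate 2 was the lowest muscle of its group, which choosing genes by correlation with Nmrk2 favours. Gamt was at 2.38, 0.56 and 2.57 FPKM in C26 and 35.6, 23.9 and 34.5 FPKM in control muscles. Deaf1 and Tmem50b had smaller differences, with log2 fold changes of -0.85 (SE 0.14) and -0.51 (SE 0.13), and Tmem50b lost its call with a pseudocount of 0.1 and in 5 of the 6 fits with a muscle left out (all but control replicate 3).

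**Figure D4:**
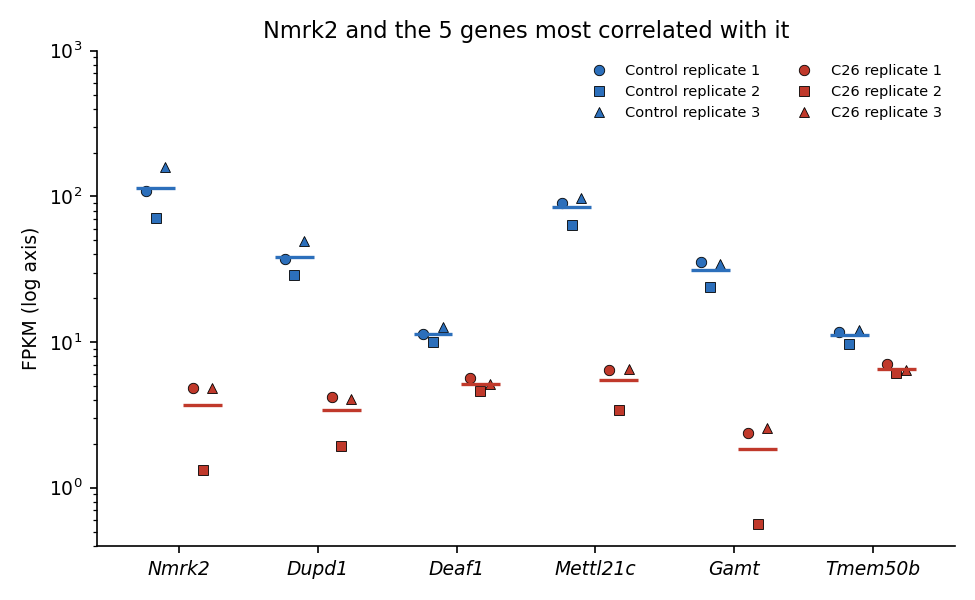
FPKM on a log axis of Nmrk2 and the 5 genes most correlated with it over the 6 muscles, with a marker shape for each replicate and lines at the group means. Replicate 2 (squares) is the lowest of its group for each of the 6 genes, as the choice by correlation favours. The distance between groups ranges from a log2 fold change of -4.61 for Nmrk2 to -0.51 for Tmem50b.

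Beside the 9 genes, 78 of 89 further genes of NAD metabolism were measured, including the route from tryptophan and Nmnat2. Of these, 18 (23.1%) were called higher and 11 (14.1%) lower, beside 19.4% and 14.5% of all genes, and 49 were not called. Their median log2 fold change was -0.15. Leaving out C26 replicate 1, C26 replicate 2 or control replicate 1 reduced the counts to between 7 and 11 higher and 6 to 7 lower. Most of the route from tryptophan was not among the listed genes, and 4 of its 12 genes were measured. Kyat3, a kynurenine aminotransferase that draws kynurenine away from NAD synthesis, rose from 4.28 ± 1.17 to 14.1 ± 5.72 FPKM (SD, n = 3 each; log2 fold change 1.75, SE 0.32, limma adjusted p = 0.0103). Afmid, the formamidase that makes kynurenine, fell from 3.87 ± 1.13 to 0.93 ± 0.25 FPKM (log2 fold change -1.37, SE 0.21, limma adjusted p = 0.00688).

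Among the 7 sirtuins, NAD-dependent deacylases, 2 were called higher (28.6%, beside 19.4% of all genes), 1 lower (14.3%, beside 14.5%) and 4 were not called. Sirt1, the nuclear deacetylase, was at 6.20, 6.29 and 4.48 FPKM in C26 and 3.18, 2.78 and 4.42 FPKM in control muscles (log2 fold change 0.82, limma adjusted p = 0.0154). Its groups were separated by a small margin, and the call was lost with FPKM as deposited and with scaling without the most abundant genes. Sirt2 was at 77.2 to 100.6 FPKM in C26 and 60.2 to 66.2 FPKM in control muscles (0.69, limma adjusted p = 0.0177). Sirt4, a mitochondrial sirtuin, was lower, at 3.03 to 4.92 FPKM against 7.68 to 9.12 FPKM (-0.90, limma adjusted p = 0.0277). Sirt2 was not called under quantile normalization (0.30) or with scaling without the most abundant genes, and Sirt1 and Sirt2 were not called without C26 replicate 1, C26 replicate 2 or control replicate 1. Sirt4 was not called without any of those 3 muscles or without control replicate 2.

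Of 16 genes listed with the PARPs and tankyrases, which use NAD to ADP-ribosylate proteins, and including Parg, which removes ADP-ribose, 3 were called higher (18.8%, beside 19.4% of all genes) and 5 lower (31.3%, beside 14.5%). The higher genes were the tankyrase Tnks (log2 fold change 1.52, limma adjusted p = 0.0125), Parp4 (1.44, 0.0259) and Parp6 (0.80, 0.0107). The lower genes were Parp14 (-1.85, limma adjusted p = 0.0200), Parp9 (-1.83, 0.0124), Parp10 (-1.66, 0.0105), Parp16 (-1.08, 0.0137) and Parp11 (-1.01, 0.0259). Of these, Parp9 and Parp10 were called in all alternatives and left-out fits. Parp4 was not called with FPKM as deposited and was called in 1 of the 6 fits with a muscle left out (the fit without C26 replicate 3), while Parp14 was not called under quantile normalization or without C26 replicate 1 or 2. Parp11 was not called under quantile normalization and was called in 1 of the 6 fits (without control replicate 2). Tnks and Parp6 were not called without C26 replicate 1, nor Parp16 without C26 replicate 1 or control replicate 1. Parp9, Parp10 and Parp14 are known as interferon-responsive members. All 3 were highest in control replicate 1, where Parp14 reached 10.3 FPKM against 2.64 and 3.10 FPKM in the other control muscles and 0.64 to 0.67 FPKM in C26 muscles. Parp12, not called (limma adjusted p = 0.118), was also highest in control replicate 1 (10.7 FPKM), while Parp11 was highest in control replicate 3 (2.30 FPKM). Parp1, the main DNA damage responsive PARP, was not called (-0.55, SE 0.21, limma adjusted p = 0.0811).

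Among genes that break down, repair or carry NAD and its precursors, Nudt5 was the only one called lower. Of all genes, 19.4% were called higher and 14.5% lower. Art5, an ecto-ADP-ribosyltransferase, was higher (log2 fold change 1.35, limma adjusted p = 0.0188). It was the only call among 6 NAD glycohydrolases and ecto-ADP-ribosyltransferases (16.7%, beside 19.4% of all genes called higher). Cd38, the main NAD glycohydrolase, was not called (-0.93, SE 0.45, limma adjusted p = 0.152). Of 7 genes listed under NAD hydrolysis and repair, among them the NMN-adenylating enzyme Nmnat2, Naxd, the dehydratase that restores hydrated NADH, was higher (1.06, limma adjusted p = 0.0149) and Nudt5, an ADP-ribose hydrolase, was lower (-1.32, limma adjusted p = 0.00503). Each direction held 14.3% of that list, beside 19.4% and 14.5% of all genes. Of 8 genes of precursor uptake and breakdown, Slc29a1, a nucleoside transporter able to carry NR, was the only call (12.5%, beside 19.4% of all genes called higher). It was at 30.3 to 51.8 FPKM in C26 and 18.7 to 22.8 FPKM in control muscles (1.15, limma adjusted p = 0.00843). Nnt, the mitochondrial transhydrogenase that makes NADPH from NADH, was higher (1.29, limma adjusted p = 0.0216), while Slc25a51, the mitochondrial NAD carrier, was not called (0.38, SE 0.18, limma adjusted p = 0.136). Slc25a33, placed in that list but known as a pyrimidine nucleotide carrier, was higher (2.18, limma adjusted p = 0.00338). Of the 3 genes of that list, 2 were called higher (66.7%, beside 19.4% of all genes). Art5 and Nnt were not called under quantile normalization. Without C26 replicate 1 or control replicate 1, Art5, Naxd and Nnt were not called, and Nnt was also not called without C26 replicate 2. Aox1, the only nicotinamide clearance gene measured, was not called (-0.58, SE 0.42, limma adjusted p = 0.310).

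Among 14 genes of NADPH supply, 1 rose (7.14%, beside 19.4% of all genes), 2 fell (14.3%, beside 14.5%) and 11 were not called. Idh2, the mitochondrial NADP-dependent isocitrate dehydrogenase, was at 598, 597 and 279.8 FPKM in C26 and 67.0, 167 and 76.5 FPKM in control muscles (log2 fold change 2.50, SE 0.46, limma adjusted p = 0.0108). The oxidative pentose phosphate enzymes G6pdx and Pgd were lower, G6pdx at 1.36 to 1.70 FPKM against 4.92 to 9.15 FPKM (-1.64, limma adjusted p = 0.00592) and Pgd at 9.69 to 11.7 FPKM against 19.6 to 26.9 FPKM (-0.91, limma adjusted p = 0.0204). Pgd was called in 2 of the 6 fits with a muscle left out, those without C26 replicate 3 or control replicate 3. C26 replicate 3 had the lowest Idh2 of its group and was still above every control muscle.

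Of 10 regulators of energy and NAD metabolism, 5 were called higher and 1 lower, beside 19.4% and 14.5% of all genes. Prkag3, the AMP kinase gamma subunit of fast glycolytic fibres, fell from 86.6, 83.6 and 86.8 FPKM in control muscles to 8.72, 10.6 and 7.96 FPKM in C26 muscles (log2 fold change -2.95, SE 0.14, limma adjusted p = 0.000822). Spread within each group was small for this gene. The catalytic subunit Prkaa2 was higher (1.16, limma adjusted p = 0.0258). Arntl, a core clock activator that drives Nampt transcription, rose from 1.17, 2.15 and 2.21 FPKM to 15.4, 14.8 and 5.76 FPKM (2.46, SE 0.38, limma adjusted p = 0.00697). Its partner Clock was higher too (0.77, limma adjusted p = 0.0186). Prkaa2 and Clock were not called without C26 replicate 1, C26 replicate 2 or control replicate 1, or with scaling without the most abundant genes, and in addition Prkaa2 was not called under quantile normalization and Clock with FPKM as deposited. Ppargc1a, the coactivator of mitochondrial genes, was at 9.29 to 10.7 FPKM in C26 and 2.47 to 3.55 FPKM in control muscles (1.77, limma adjusted p = 0.00282), and Ppard, a nuclear receptor of fatty acid use, was at 17.5 to 19.4 FPKM against 8.89 to 9.15 FPKM (1.21, limma adjusted p = 0.00350). The time of day of collection is not given in the labels. Of the integrin genes listed for the integrin binding of Nmrk2, Itgb1 was called higher (0.65, limma adjusted p = 0.0407) in the reported fit and in only 1 of 8 alternatives with all muscles and 1 of 6 fits with a muscle left out (C26 replicate 3), and Itga7 was not called (-0.08, SE 0.29).

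**Figure D5:**
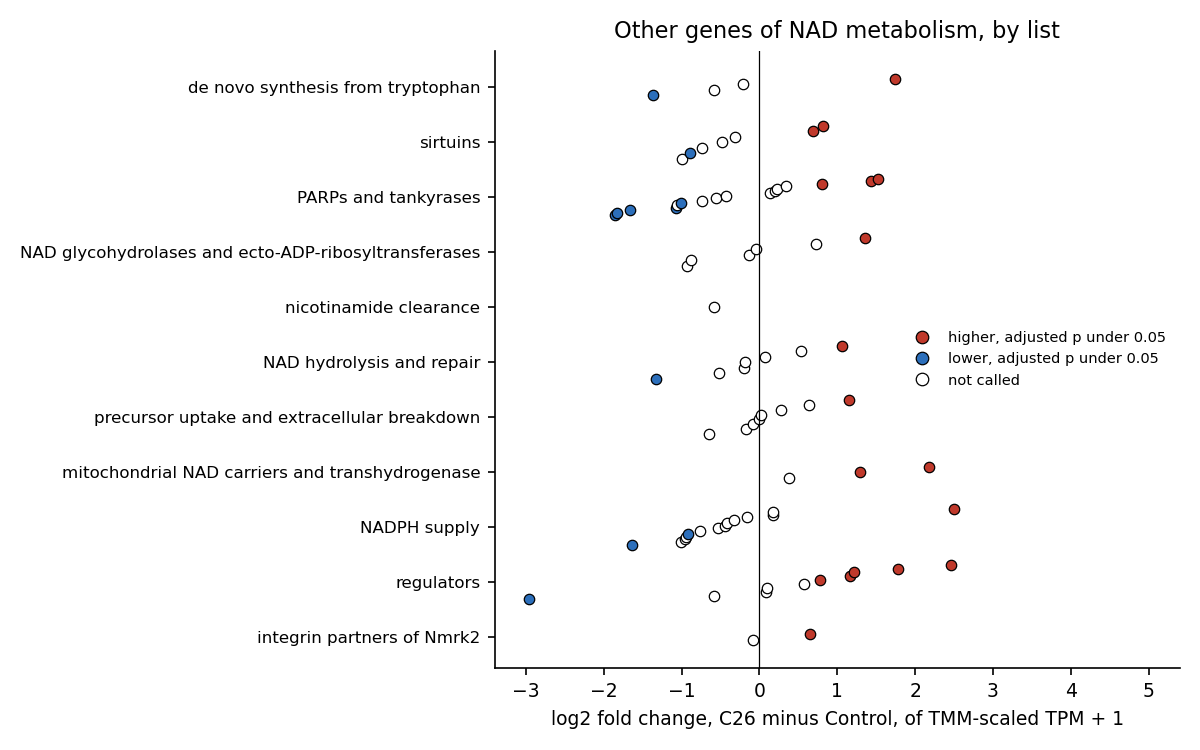
Log2 fold change (C26 minus control) of the 78 other genes of NAD metabolism by list, each point a gene, filled where the limma adjusted p was under 0.05 (red higher, blue lower). The points reach from -2.95 for Prkag3 to 2.50 for Idh2, and both directions occur in most lists.

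Other marker lists were measured as background for these bulk libraries. Endothelial markers summed to 34.1 to 39.9 FPKM in C26 and 45.0 to 61.9 FPKM in control muscle (1 of 5 called lower, beside 14.5% of all genes), and Schwann cell markers to 11.7 to 29.2 and 21.5 to 73.7 FPKM (1 of 4 called lower). These sums are of FPKM as deposited. In TMM-scaled TPM, 1 of the 5 endothelial and 1 of the 4 Schwann cell markers had groups apart, beside 53.5% of all genes. Kdr, the endothelial call, was lost under quantile normalization and in 4 of the 6 fits with a muscle left out (C26 replicate 1 or 2, control replicate 1 or 2), and S100b, the Schwann cell call, under quantile normalization and without control replicate 1. The 5 measured macrophage and leukocyte markers summed to 18.8 to 265 FPKM with a tumor and 18.6 to 79.8 FPKM without, and the highest sums rested on Cd68 at 247 FPKM in C26 replicate 2 and Ptprc at 40.1 FPKM in control replicate 3. Cd3e and Cd79a were not among the listed genes. The deposited FPKM summed to 531061 to 585169 in C26 and 626992 to 688300 in control libraries, and read depth is unknown.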

How the data were processed

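Gastrocnemius samples, 3 of C26 and 3 of control mice, were grouped by their labels. The authors deposited FPKM values to 2 decimals, made by aligning single-end reads of 50 bases and estimating expression with RSEM. The study's methods name bowtie2 and GRCm38, and the submitters' processing notes list Bowtie2 2.2.5, HISAT2 2.0.4, RSEM 1.2.12 and mm9, so the build behind the values is not settled. Counts were not analysed here, so depth and counting error are unknown.

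FPKM were rescaled to a sum of 1000000 (TPM), divided by unweighted TMM factors computed in R (30% of log ratios and 5% of levels trimmed) and log2 transformed with a pseudocount of 1, which understates changes of low genes. C26 and control muscles were compared with limma 3.58.1 (R 4.3.3, empirical Bayes, two-sided), with Benjamini-Hochberg adjustment over 13363 genes and a threshold of 0.05. The script was tested on simulated data. Symbols were matched for 13327 Entrez identifiers. Gene positions came from GENCODE and promoter windows from RefSeq, which held none for Naprt and Nadk2. Figures were drawn with matplotlib 3.10.9.

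The members and gene lists were chosen with earlier results of these data known. Genes named are all 9 members, up to 4 called genes in each direction of each other list, and the 5 genes most correlated with Nmrk2. Parp11, Parp12, Clock, Parp1, Cd38, Slc25a51, Aox1, Itga7 and single markers were named after their values were seen. The 8 alternatives with all muscles were quantile normalization, an intensity trend, the replicate number as a block, a pseudocount of 0.1, the deposited FPKM without rescaling, TPM left unscaled, a filter on a mean TPM of 1 and, chosen after seeing the data, scaling without the 20 most abundant genes. Each muscle was also left out in turn.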

Additional observations from a re-analysis of the deposited data

How the results depend on the processing

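Nmrk2 passed the threshold in every alternative run, with log2 fold changes of -4.88 to -4.58 with all muscles and -4.85 to -4.07 with a muscle left out. Nampt passed in all 8 alternatives with all muscles (0.79 to 1.21), and Nmrk1 was -0.70 to -0.13. The number of members called lower was 1 under quantile normalization, the replicate block and the intensity trend, and the fold change of Nmrk1 moved under the first of these only. The called genes and markers changed direction in no alternative and in no fit with a muscle left out. Over all genes, 2590 were called higher and 1931 lower, against 1678 higher and 2504 lower with FPKM as deposited and 1542 higher and 3209 lower with scaling without the 20 most abundant genes, which also called 17 other NAD genes lower. That scaling moved the all-gene median by -0.19 on the log2 scale. The replicate block called 1844 genes higher and 1236 lower, and 14 and 8 of the other NAD genes, with Sirt1, Sirt4, Parp11, Art5, Nnt, Pgd and Itgb1 no longer called, nor Nmrk1, Tmem50b, Dpt and Lum. Whether same-numbered muscles of the groups are paired is not given in the labels. Their deviations from the group means correlated at -0.04, -0.08 and -0.11, against -0.10 to 0.13 for differently numbered muscles. With 3 muscles per group this does not settle whether they are paired.

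Over the fits that each lacked a muscle, 1131 to 3311 genes were called higher and 669 to 2160 lower, as were 7 to 20 and 6 to 16 other NAD genes and 0 to 2 and 1 to 2 members. The lowest counts came without C26 replicate 1 (1131 and 669), C26 replicate 2 (1528 and 946) or control replicate 1 (1152 and 724). With FPKM to 2 decimals and no counts, differences in genes near 1 FPKM, such as Nmrk1 and Nadsyn1, have no known counting error.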
